A study of Mus musculus with 18 samples.

Results

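The comparison set whole urinary bladders of 3 mice taken 3 days after a single intraperitoneal injection of cyclophosphamide against those of 3 mice taken 1 day after saline, all on normal chow. All mice of the series were wild-type BALBc females aged 8 weeks, and the dose of cyclophosphamide was 150 mg/kg of body weight. These 6 libraries of the 18 in the series were chosen by their labels alone, and every named gene of the deposited count table entered. Of 46333 named genes, 19323 passed the filter on low counts and were tested. The day of collection differed between the groups along with the injection, and no saline mice of day 3 were analysed here, so day and drug cannot be told apart. Mice were housed in groups of 3 and the labels do not say which shared a cage, so cage and group cannot be told apart either. For reference, 3 mice on normal chow taken 1 day after cyclophosphamide, and 3 saline and 3 cyclophosphamide mice (taken at day 1 and day 3) on a diet enriched in vitamin A from a week before injection, are given beside the main comparison. A p-value here sets a change against the spread between mice within a group, 3 in each. That spread was estimated over all 6 groups of the series. The group not named above held 3 mice taken 1 day after cyclophosphamide on the vitamin A diet. Values of single genes are listed in the order of mice 1, 2 and 3 of a group, and summed values of lists from lowest to highest.

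Cyclophosphamide is an alkylating drug whose breakdown product acrolein is excreted in urine and injures the lining of the bladder, the urothelium. That lining is built of superficial umbrella cells, which carry uroplakin plaques, over intermediate and basal cells, the latter marked by keratin 5. Injury strips superficial cells, and cells below divide, refill the layers and later regain the superficial markers, beside a response of the fibroblasts, muscle and vessels underneath. Alkylated DNA is also the classical trigger of p53, the transcription factor that induces the cell cycle inhibitor p21.

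The libraries held 29131065 to 34202891 counts in the mice taken 3 days after cyclophosphamide and 20582993 to 32973299 in the saline mice. Levels are given as CPM, counts relative to the library total, scaled by the trimmed mean of M values (TMM), with factors of 1.027 to 1.045 and 0.9845 to 1.008 in the 2 groups. Mitochondrial genes took 1.993% to 2.078% of counts after cyclophosphamide and 2.361% to 2.978% after saline. The labelled tissue carried its defining markers in every library: the summed level of 20 urothelial genes was 15310 to 15810 CPM after saline and 11970 to 15940 CPM after cyclophosphamide, and that of 19 smooth muscle genes 33610 to 43610 and 13470 to 24590 CPM. Whole-organ values do not separate fewer cells of a type from less RNA per cell. CPM are also shares of a library, so a fall in the abundant muscle transcripts lifts the share of all others unless scaling removes it. The median log2 change of all tested genes was -0.000432 after TMM scaling. That scaling sets the bulk of genes near no change, so this median cannot show whether the effect was removed.

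At 3 days, genes of cell division stood far above the saline level, p53 targets and genes of matrix remodelling were higher, and genes of smooth muscle, several uroplakins, MHC class II genes and haemoglobins were lower. Of the 19323 genes tested, 1940 (10.0%) differed from saline at an adjusted p under 0.05 (edgeR's quasi-likelihood test, Benjamini-Hochberg adjustment), 1303 (6.74%) higher and 637 (3.30%) lower. The shares of 6.74% and 3.30% are the reference for every count of list members against saline given below. The change was at least 2-fold for 834 of the higher and 275 of the lower genes, and at least 4-fold for 380 and 62. Protein-coding genes were called more often (11.9% of 15320) than long noncoding RNAs (3.44% of 2760), with no test of that difference. Leaving out single libraries left between 961 calls (without cyclophosphamide mouse 1) and 1559 (without cyclophosphamide mouse 2), with 1267, 1193, 1102 and 1105 without cyclophosphamide mouse 3 and saline mice 1, 2 and 3. A fit on the 6 libraries alone called 3710 genes, 55.4% of them higher, against 67.2% higher in the fit of all 18 libraries. DESeq2 called 2674 genes, 60.4% of them higher, and without cyclophosphamide mouse 1 82.3% of the calls were higher.

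**Figure D1:**
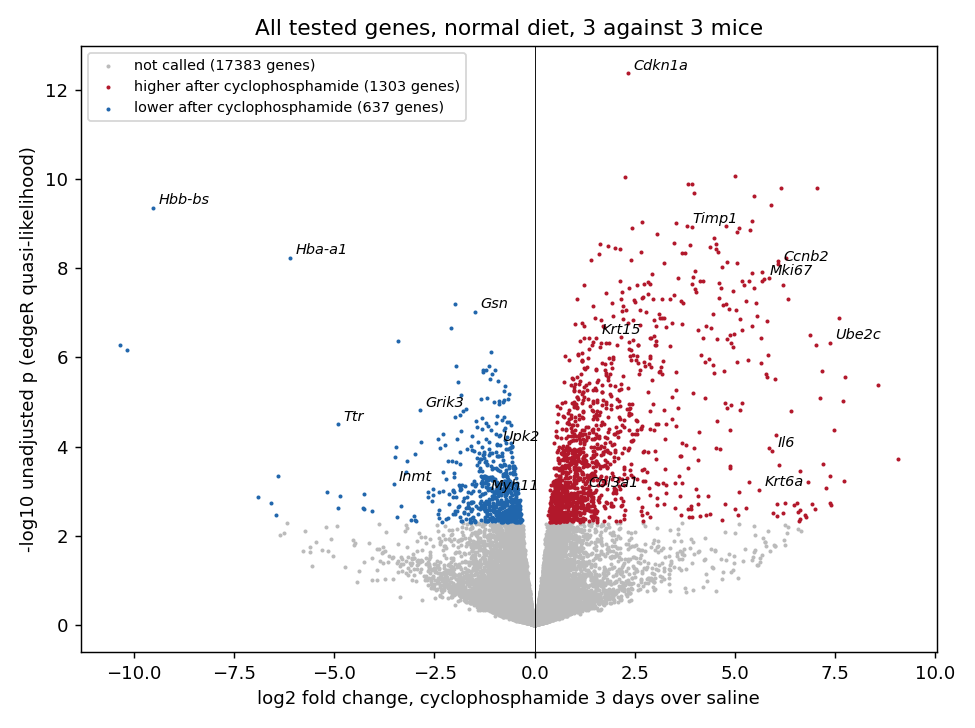
Each point is 1 of 19323 tested genes, with its log2 fold change 3 days after cyclophosphamide over saline on the x axis and the negative log10 of its unadjusted p on the y axis. Red points (1303) are higher and blue points (637) lower at an adjusted p under 0.05; mitotic genes such as Ube2c and Mki67 lie at the far right, haemoglobins (Hbb-bs, Hba-a1) at the far left, and Cdkn1a has the smallest p.

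Genes that act in mitosis led the rises among well-expressed genes. All 24 members of the list for mitosis and the G2/M phase rose, with a median log2 change of 4.96, against 6.74% of all tested genes that rose. Their summed level was 62.6, 65.7 and 72.4 CPM in the saline mice and 828, 1077 and 1078 CPM at 3 days, so the groups lay more than 10-fold apart with no overlap. Mki67, which encodes the proliferation antigen Ki-67, stood at 3.74, 1.84 and 1.91 CPM after saline and 139.8, 103 and 149.7 CPM at 3 days (log2 fold change 5.73 ± 0.577 (SE), adjusted p = 6.06e-06). Ube2c, whose product is the ubiquitin-conjugating enzyme of the anaphase-promoting complex, stood at 0.591, 0.486 and 0 CPM and then 60.4, 40.3 and 54.96 CPM (log2 fold change 7.36 ± 0.901 (SE), adjusted p = 5.51e-05). Top2a, the topoisomerase that untangles chromosomes, stood at 6.06, 4.56 and 4.99 CPM and then 121, 107 and 130.2 CPM (log2 fold change 4.52 ± 0.429 (SE), adjusted p = 2.23e-06). In these genes every cyclophosphamide mouse lay at least 10 times above every saline mouse.

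The mitotic cyclins and kinases moved together with them. Ccnb1 and Ccnb2, the B-type cyclins that drive entry into mitosis, went from 0.591 ± 0.105 to 34.2 ± 7.79 CPM and from 0.484 ± 0.0931 to 32.3 ± 6.104 CPM (mean ± SD, n = 3), log2 changes of 5.82 and 6.07 with adjusted p = 9.09e-05 and 3.37e-06. Their kinase Cdk1 rose by 5.47 on the log2 scale (adjusted p = 5.14e-07), and the cyclin gene Ccna2 by 5.09 (adjusted p = 1.26e-06). Genes of the kinetochore and spindle rose as well: the log2 change was 5.90 for Cenpf, 6.08 for Nek2, 5.79 for Kif2c, 5.68 for Kif15, 5.56 for Spag5, 5.53 for Knl1 and 5.48 for Aurkb, the kinase of the chromosomal passenger complex. Birc5 (survivin), a partner of that kinase, rose by 6.29, and Nusap1 by 5.06. Of the remaining genes among the 15 largest rises, Pclaf, a PCNA-binding factor, rose by 7.04, the cohesin acetyltransferase Esco2 by 6.20 and the scaffold Iqgap3 by 5.67. Cdc25c, the phosphatase that releases Cdk1, had 659 counts in the cyclophosphamide group and 3 in the saline group, a ratio of 164.2 with a 95% counting interval from 55.95 to 798.3. The smallest rise of the list was that of Kif23 (1.11, adjusted p = 0.0347), a call lost without any 1 mouse other than saline mouse 3, with a replicate block and without the filter on low counts (adjusted p up to 0.137).

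Some mitotic genes were higher at 3 days than at 1 day after the drug, and in sum every mouse of day 3 was. At 1 day the list summed to 209.7, 362 and 612 CPM, below every mouse of day 3. Mki67 stood at 49.4, 69.1 and 29.9 CPM at 1 day and Ccnb1 at 2.55, 19.3 and 2.24 CPM, with mouse 2 the highest of that group for both. Tested directly between the 2 days, 5 of 24 members were higher at 3 days: Cenpf (1.82, adjusted p = 0.0184), Nusap1 (1.54, adjusted p = 0.0416), Tpx2 (1.47, adjusted p = 0.0142), Anln (1.79, adjusted p = 0.00393) and Kif20a (1.65, adjusted p = 0.0378). Across all genes 1.22% were higher and 0.217% lower at 3 days than at 1 day, 278 genes or 1.44% in all. The shares of 1.22% and 0.217% are the reference for every count of list members against 1 day. For Mki67 the direct log2 difference of 1.40 had an adjusted p of 0.179, and for Top2a 0.86 had 0.354.

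Promoters of 3 of these genes are shown because genes of late cell cycle phases are known to share 2 short elements, a CCAAT box (CCAAT, bound by the factor NF-Y) and a cell cycle homology element (TTTGAA in the form searched here). Sequences are from RefSeq (GRCm38.p6), 250 bases before to 50 after the start of transcription, 5′ to 3′ on the gene's strand, with capitals marking a match to either element on either strand. The windows are chr9:70421505-70421804, minus strand for Ccnb2, chr2:164769679-164769978, plus strand for Ube2c and chr13:100786437-100786736, minus strand for Ccnb1.
Ccnb2: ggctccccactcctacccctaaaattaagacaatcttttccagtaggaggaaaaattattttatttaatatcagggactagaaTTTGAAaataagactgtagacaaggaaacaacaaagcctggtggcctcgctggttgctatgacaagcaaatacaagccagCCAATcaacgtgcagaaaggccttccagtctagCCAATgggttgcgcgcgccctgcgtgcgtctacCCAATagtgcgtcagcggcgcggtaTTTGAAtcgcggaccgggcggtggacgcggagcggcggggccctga
Ube2c: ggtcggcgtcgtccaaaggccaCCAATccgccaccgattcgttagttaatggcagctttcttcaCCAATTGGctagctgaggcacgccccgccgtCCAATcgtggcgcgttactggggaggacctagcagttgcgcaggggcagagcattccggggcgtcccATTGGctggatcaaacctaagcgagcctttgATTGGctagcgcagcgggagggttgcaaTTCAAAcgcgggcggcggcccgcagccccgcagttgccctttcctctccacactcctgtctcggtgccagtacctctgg
Ccnb1: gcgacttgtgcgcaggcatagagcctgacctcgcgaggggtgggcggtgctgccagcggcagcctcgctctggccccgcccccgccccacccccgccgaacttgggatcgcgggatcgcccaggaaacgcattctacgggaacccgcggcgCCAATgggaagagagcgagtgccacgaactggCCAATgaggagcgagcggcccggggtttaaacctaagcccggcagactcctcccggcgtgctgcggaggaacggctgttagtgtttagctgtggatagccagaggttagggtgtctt
Ccnb2 held 5 matches, 3 CCAAT boxes and 2 homology elements, of which one lies close to the start of transcription. Ube2c held 7 matches, of which CCAAT on the upper strand and its complement overlap in one run, and Ccnb1 held 2 CCAAT boxes and no TTTGAA. The letters TTTGAA were present in 13 of 18 promoters of the list that had an entry (72.2%), against 20.2% of 27025 genes with an entry, and CCAAT in 15 of 18 (83.3%), against 41.1%. A match is a run of letters, not a measured binding site.

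Genes of DNA replication were higher than saline by a smaller factor, at levels that overlapped those of day 1. Of 22 members of the list, 21 rose and none fell, with a median log2 change of 1.99. The summed level was 198, 208 and 216 CPM after saline, 669, 787 and 978 CPM at 1 day and 562, 677 and 829 CPM at 3 days, so both drug groups lay above saline and overlapped each other. Mcm6, a subunit of the replicative helicase, stood at 3.35, 3.01 and 3.24 CPM after saline, 49.7, 65.2 and 46.8 CPM at 1 day and 65.6, 36.9 and 43.5 CPM at 3 days (log2 fold change 3.92 ± 0.349 (SE), adjusted p = 1.26e-06). Rrm2, the regulated subunit of ribonucleotide reductase, rose by 3.58, Uhrf1, which maintains DNA methylation, by 3.94, and Mcm5 by 2.94 on the log2 scale. Pcna, the sliding clamp, rose by 0.98 (adjusted p = 0.000721). The exception was Rfc4, a subunit of the clamp loader (0.67, adjusted p = 0.07). Between 3 days and 1 day none of the 22 differed, with log2 differences from -0.77 to 0.27 and a median of -0.23.

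The promoter of Mcm3 (chr1:20820263-20820562, minus strand, GRCm38.p6) is shown for its single match to GGCGGGAA (capitals), a form of the site of E2F factors, which govern S-phase genes.
Mcm3: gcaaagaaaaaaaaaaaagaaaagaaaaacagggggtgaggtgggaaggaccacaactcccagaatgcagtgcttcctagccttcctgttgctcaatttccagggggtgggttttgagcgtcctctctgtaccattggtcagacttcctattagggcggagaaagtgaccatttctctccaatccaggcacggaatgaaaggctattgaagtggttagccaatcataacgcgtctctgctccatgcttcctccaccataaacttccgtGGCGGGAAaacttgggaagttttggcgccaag
That run of letters was found on either strand in 5 of 19 promoters of the replication list (26.3%) and in 2.52% of all genes with an entry. None of 18 mitotic promoters held it, while CCAAT was in 13 of 19 promoters of the replication list and TTTGAA in 2 of 19. Mcm3 itself stood at 11.2 ± 1.08 CPM after saline and 42.3 ± 9.899 CPM at 3 days (log2 fold change 1.92 ± 0.279 (SE), adjusted p = 0.000152).

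Most targets of p53 were higher, among them the gene of the cell cycle inhibitor p21. Of 25 measured targets, 17 rose and none fell, with a median log2 change of 0.86. Cdkn1a, which encodes p21, stood at 53.1, 54.4 and 48.4 CPM after saline and 292, 266 and 222 CPM at 3 days, the lowest drug value above 4 times the highest saline value (log2 fold change 2.32 ± 0.129 (SE), adjusted p = 8.11e-09). Mdm2, the ubiquitin ligase that limits p53, stood at 73.05, 81.1 and 76.9 CPM and then 153, 132 and 131 CPM (log2 fold change 0.85 ± 0.119 (SE), adjusted p = 0.00011). The spindle protein gene Psrc1 rose by 4.47, the death receptor gene Tnfrsf10b by 2.14 and the receptor gene Eda2r by 2.69 on the log2 scale. Gdf15, a secreted stress factor, went from 0.259 ± 0.1699 to 4.97 ± 0.781 CPM (log2 fold change 4.24 ± 0.693 (SE), adjusted p = 0.000518). Of the pro-apoptotic genes, Bax rose (1.19, adjusted p = 0.000112), Pmaip1 (Noxa) rose (0.58, adjusted p = 0.0465), and Bbc3 (Puma) had 0.74, adjusted p = 0.0572. The call of Pmaip1 was lost with a replicate block and without any 1 mouse other than cyclophosphamide mouse 2 (adjusted p up to 0.239), and Bbc3 was called by DESeq2, in a fit of the 6 libraries alone and without cyclophosphamide mouse 3 or saline mouse 3 (adjusted p down to 0.031). Rrm2b, a p53-induced reductase subunit, had a log2 change of -0.39 (adjusted p = 0.109). No target differed between 3 days and 1 day; Cdkn1a stood at 187, 236 and 200.4 CPM at 1 day.

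Genes that repair crosslinks and double-strand breaks rose in part: 10 of 18 passed the test, all upward, with a median of 1.23. Brip1, a helicase, went from 1.07 ± 0.384 to 10.03 ± 1.56 CPM (log2 fold change 3.22 ± 0.389 (SE), adjusted p = 2.18e-05). Brca1 rose by 3.13 and the nuclease gene Exo1 by 5.66 on the log2 scale. Members of the Fanconi anaemia core complex did not pass: Fanca had 0.72, adjusted p = 0.156 and Fancl 0.25, adjusted p = 0.506. Fancd2, the protein that complex modifies, had 0.58, adjusted p = 0.277, and Fanci, its partner, rose (2.36, adjusted p = 0.000983). A fit of the 6 libraries alone called Fanca and Fancd2 higher (adjusted p = 0.0172 and 0.0154). As background, genes such as Brca1 and Exo1 are expressed mainly in dividing cells.

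**Figure D2:**
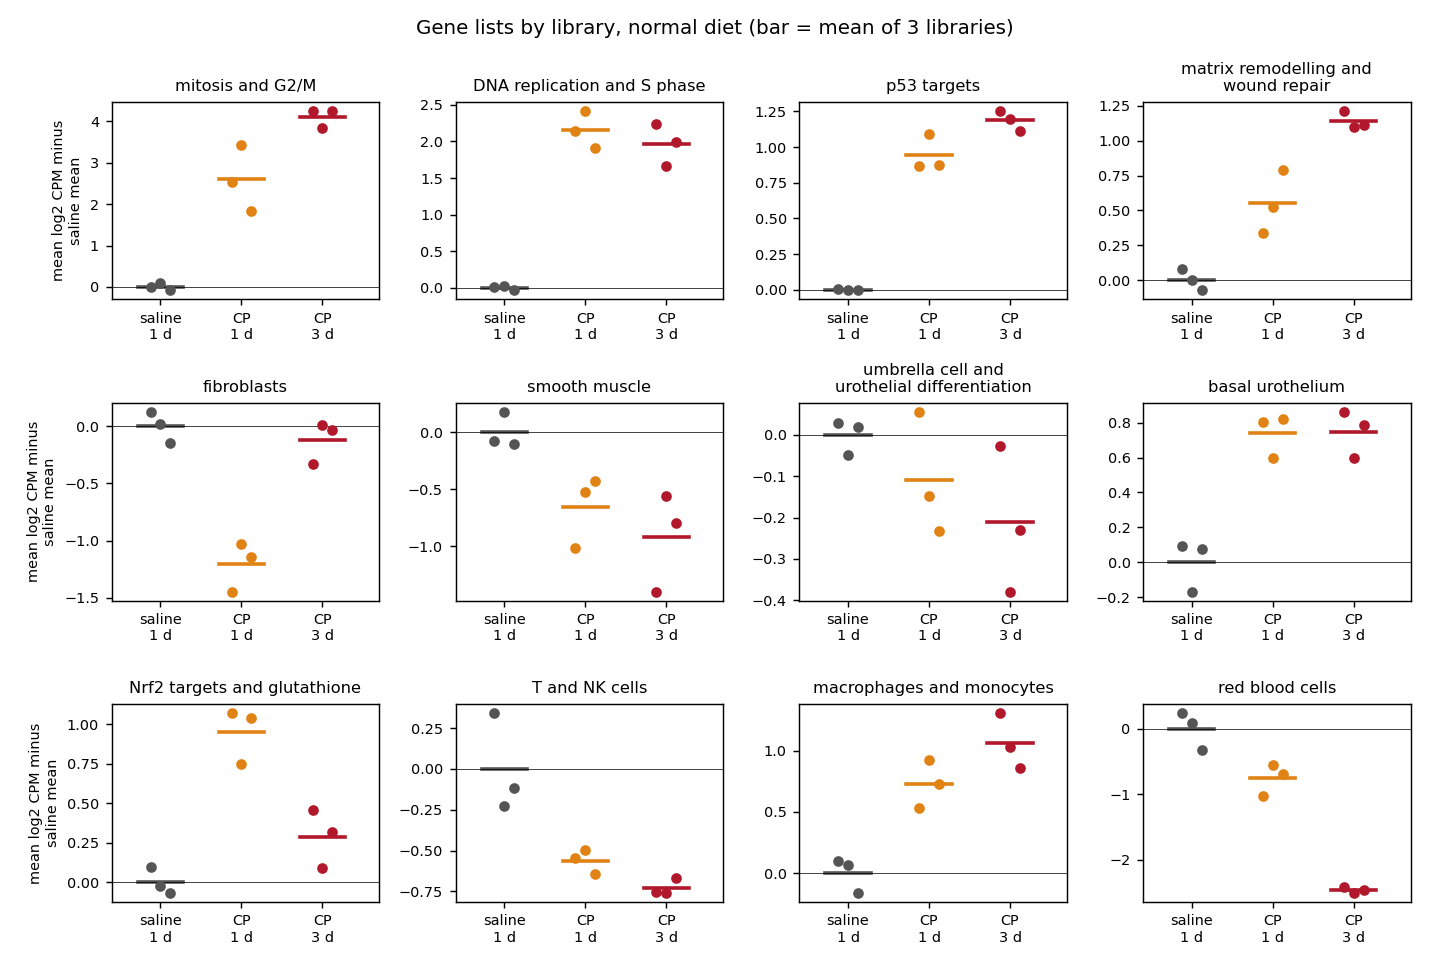
Mean log2 CPM of the tested members of 12 gene lists, minus the mean of the saline mice, in each library (points; 3 per group) with the group mean as a bar. The mitotic list is higher at 3 days than at 1 day in every mouse, the replication list overlaps between the days, fibroblast genes are low at 1 day and near saline at 3 days, and red cell genes are lowest at 3 days.

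In the urothelium, 5 of 19 tested umbrella cell genes were lower and 6 of 18 basal genes higher than after saline. Of 20 genes of umbrella cells and urothelial differentiation, 19 were tested, and beside the 5 that fell 1 rose. Upk2 stood at 1186, 1137 and 1205 CPM after saline and 629.8, 566 and 651 CPM at 3 days, with 715, 675 and 554 CPM at 1 day (log2 fold change -0.93 ± 0.187 (SE), adjusted p = 0.00318). Upk1a stood at 2342, 2267 and 2399 CPM and then 1518, 1277 and 1387 CPM (log2 fold change -0.74 ± 0.205 (SE), adjusted p = 0.0261). Every drug mouse lay below every saline mouse for both of these plaque proteins. The other 2 plaque genes of the fixed set did not pass: Upk3a stood at 1586, 1677 and 1587 and 1155, 1005 and 1109 CPM (log2 fold change -0.57 ± 0.256 (SE), adjusted p = 0.187), without overlap, and Upk1b at 1606, 1585 and 1815 and 1698, 1286 and 1535 CPM (log2 fold change -0.15 ± 0.186 (SE), adjusted p = 0.696), with overlap.

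Per transcript length, by the authors' FPKM (fragments scaled by transcript length and library size), the order of the 4 plaque genes at 3 days was Upk1a, Upk3a, Upk1b and Upk2: Upk1a had 1047 ± 88.9 at 3 days, Upk3a 968 ± 66.6, Upk1b 787 ± 107 and Upk2 692 ± 48.3 (SD, n = 3), and Upk2 had 1334 ± 44.8 after saline. Krt20, the keratin of mature umbrella cells, stood at 165, 160.2 and 158 CPM and then 106, 89.96 and 106 CPM (log2 fold change -0.68 ± 0.185 (SE), adjusted p = 0.0241). The tight junction gene Cldn8 fell more (log2 fold change -1.15 ± 0.235 (SE), adjusted p = 0.00381), and Upk3b, which mesothelium also expresses, fell as well (-0.68, adjusted p = 0.0125). Krt19, a keratin of several urothelial layers, rose (0.92, adjusted p = 0.0267). The transcription factor genes Pparg and Foxa1 had log2 changes of 0.01 and 0.20 (adjusted p = 0.989 and 0.605), and the epithelial factor gene Elf3 0.57 (0.124). The falls of Krt20 and Upk1a lost the call without any 1 of the 6 mice (adjusted p up to 0.0938 and 0.0923), that of Upk3b without cyclophosphamide mouse 2 (0.0569), and the rise of Krt19 without cyclophosphamide mouse 1 or any saline mouse (up to 0.15). The count of 5 fell to 2 without cyclophosphamide mouse 2 and to 3 without any 1 of the others, with Upk2 and Cldn8 called each time.

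Of 18 basal genes, 6 rose and none fell, with a median log2 change of 0.73. Krt5, the defining keratin of basal cells, stood at 1087, 969 and 976 CPM after saline and 1781, 1463 and 1630 CPM at 3 days (log2 fold change 0.68 ± 0.189 (SE), adjusted p = 0.0266). Krt14, a keratin of a small subset of basal cells, stood at 2.17, 0.826 and 2.603 CPM and then 92.6, 27.1 and 41.5 CPM, with mouse 1 the highest (log2 fold change 4.81 ± 0.762 (SE), adjusted p = 0.000757). Per length, Krt14 reached 30.7 ± 19.6 FPKM and Krt5 724 ± 69.7 FPKM. Krt15 went from 595 ± 36.4 to 1717 ± 203 CPM (log2 fold change 1.53 ± 0.198 (SE), adjusted p = 4.71e-05), and the adhesion genes Cd44, Col17a1 and Itgb4 rose by 0.98, 1.76 and 1.05 on the log2 scale. Trp63, the master factor of basal identity, stood at 214, 211 and 206 and 215, 171 and 211 CPM (log2 fold change -0.08 ± 0.165 (SE), adjusted p = 0.827). Shh, the hedgehog ligand that basal cells send to the stroma, stood at 203, 188 and 195 and 202, 163 and 193 CPM (log2 fold change -0.07 ± 0.167 (SE), adjusted p = 0.856). Both of these overlapped between the groups. No basal gene and no umbrella gene differed between 3 days and 1 day. The call of Krt5 was lost without cyclophosphamide mouse 1 or 3 or any saline mouse (adjusted p up to 0.116), and that of Itgb4 without cyclophosphamide mouse 3 or saline mouse 1 or 2 (up to 0.0964).

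Of 23 keratin and envelope genes of squamous epithelium 17 passed the filter on low counts, 7 rose and none fell, and 6 of the 7 rose from a mean below 4 CPM. The list summed to 3259, 3381 and 3540 CPM after saline, led by Sprr1a, Sprr2a3 and Ivl. Krt4 stood at 4.43, 3.399 and 3.09 CPM after saline and 224, 101 and 79.2 CPM at 3 days (log2 fold change 5.22 ± 0.539 (SE), adjusted p = 6.63e-06), and its partner Krt13 at 0.739, 0.389 and 0.424 and 5.93, 4.08 and 2.91 CPM (log2 fold change 3.07 ± 0.561 (SE), adjusted p = 0.00146). Krt6a, a keratin of wounded epithelium, had 228 counts in the drug group and 3 in the saline group (ratio 56.82, 95% counting interval 19.2 to 277.5), and the desmoglein gene Dsg3 had 391 and 3 (97.43, 33.09 to 474.5). Its desmosomal partner Dsc3 had 58 counts after the drug and 0 after saline, at least 14.45-fold higher against a floor of 3 counts in the group. The crosslinking enzyme Tgm1 rose by 2.96 and the envelope gene Sprr2a3 by 0.96. Unlike the other genes that rose, Sprr2a3 was abundant after saline (963 ± 21.5 CPM, then 1875 ± 605 CPM), and close copies may share its reads. Krt1, Krt10 and Lor, genes of cornified skin, had adjusted p = 0.651, 0.33 and 0.682, and Flg, Krt16 and Lce3c had no count in either group. Sbsn, a secreted protein of differentiating epithelium, was at 104 ± 27.3 CPM at 1 day and 25.98 ± 4.37 CPM at 3 days, lower at the later day (-2.01, adjusted p = 0.000222). Without saline mouse 1 or 3, 4 of the 7 rises were called: those of Krt6a, Dsc3 and Sprr2a3 were lost without either of these mice and without others (adjusted p up to 0.0961, 0.0989 and 0.212, the last without cyclophosphamide mouse 1).

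Growth factors that act on the urothelium included 8 rises and no fall among 24 genes, beside 6.74% and 3.30% of all tested genes. The EGF family ligands Areg (amphiregulin) and Ereg (epiregulin) stood at 0.0985, 0.3399 and 0.242 and 1.72, 0.971 and 2.51 CPM after saline. At 3 days they stood at 28.4, 4.81 and 11.4 and 35.8, 7.25 and 18.3 CPM, with mouse 1 the highest for both (log2 changes 5.99 and 3.52, adjusted p = 0.000228 and 0.000361). Hbegf and Nrg1, 2 more ligands of this family, rose by 1.15 and 1.70, while Egf and Tgfa had adjusted p = 0.981 and 0.245. The call of Hbegf was lost without any 1 mouse other than cyclophosphamide mouse 2, with a replicate block and without the filter (adjusted p up to 0.344), and that of Nrg1 without cyclophosphamide mouse 3 or saline mouse 2 or 3 (up to 0.0667). Igf1, a growth factor of stroma and macrophages, went from 17.3 ± 9.73 CPM through 29.7 ± 3.12 CPM at 1 day to 79.2 ± 22.9 CPM (log2 fold change 2.20 ± 0.328 (SE), adjusted p = 0.000199), and was higher at 3 days than at 1 day (1.42, adjusted p = 0.0302). Stat3 and its feedback target Socs3 rose by 0.54 and 1.67, and Wnt4 by 1.07. Of the stromal signals that answer hedgehog in the bladder, Gli1, Wnt2 and Bmp4 were called against 1 day and not against saline: Bmp4 stood at 44.7, 39.7 and 40.4 CPM after saline, 11.6, 17.8 and 16.1 CPM at 1 day and 36.9, 45.8 and 42.4 CPM at 3 days (1.46, adjusted p = 0.000901 for 3 days against 1 day).

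**Figure D3:**
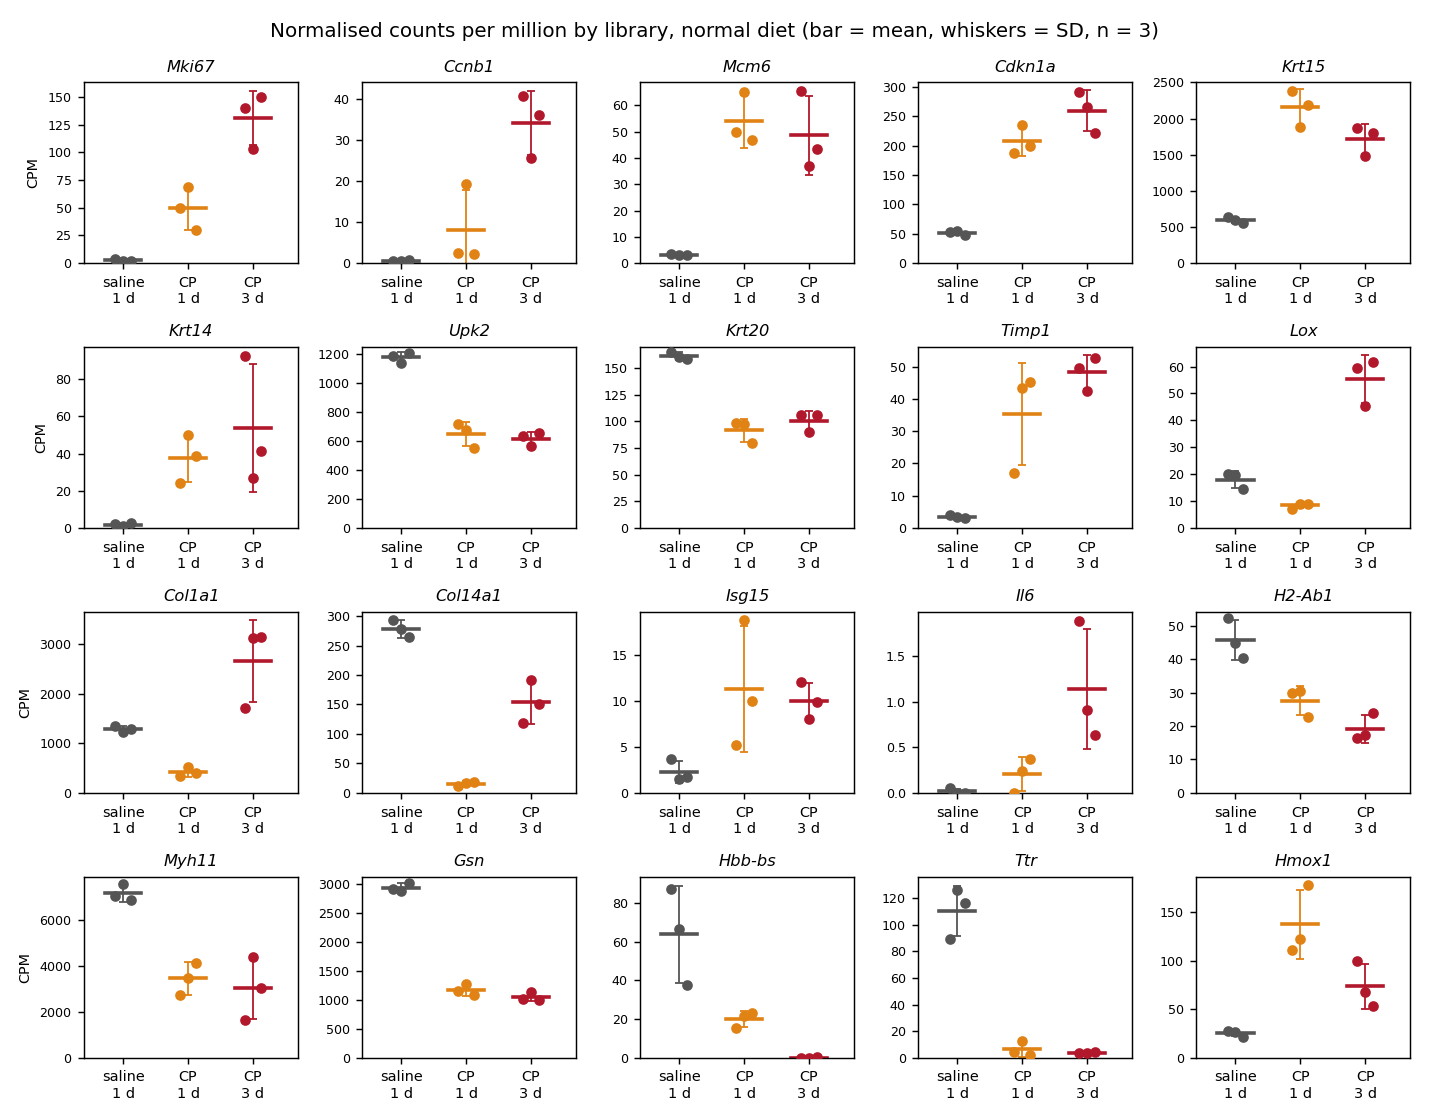
CPM of 20 genes in each of 9 mice on normal diet (points), with the mean (bar) and SD (whiskers) of 3 mice per group, on linear axes from 0. Mki67, Ccnb1 and Lox are highest at 3 days, Mcm6 values overlap between 1 and 3 days, Col1a1 and Col14a1 are lowest at 1 day, and Hbb-bs and Ttr are near 0 at 3 days.

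Some inflammatory signals rose from low levels. Of 23 cytokines and chemokines 21 were tested, 6 rose and none fell, with a median log2 change of 1.09, or 0.98 with the 1 gene at 0 in saline set to its lower bound. The alarmin Il33 stood at 7.39, 6.41 and 4.78 CPM after saline and 79.8, 37.98 and 42.7 CPM at 3 days (log2 fold change 3.12 ± 0.449 (SE), adjusted p = 0.00017). Lif, a cytokine of the interleukin 6 family, went from 1.09 ± 0.0619 to 6.601 ± 0.373 CPM (log2 fold change 2.59 ± 0.344 (SE), adjusted p = 5.89e-05), and Il1rn, the interleukin 1 receptor antagonist, from 4.31 ± 0.181 to 29.3 ± 9.63 CPM. Il6 had 116 counts in the drug group and 1 in the saline group, a ratio of 86.72 with a counting interval of 15.26 to 3454. The monocyte chemokines Ccl7 and Ccl2 rose by 3.44 and 2.55, whereas the neutrophil chemokine Cxcl1 stood at 0.296, 0.486 and 0.272 and 1.06, 0.646 and 0.602 CPM (log2 fold change 1.14 ± 0.521 (SE), adjusted p = 0.193). Il1b and Tnf, both under 2 CPM in mean, had adjusted p = 0.97 and 0.891.

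Among genes of mucosal defence, the lectin gene Reg3g stood at 0.542, 1.17 and 0.272 CPM after saline, 71.9, 41.9 and 57.99 CPM at 1 day and 19.3, 12.8 and 25.4 CPM at 3 days (log2 fold change 4.94 ± 0.543 (SE), adjusted p = 8.29e-06 against saline). Of the 15 tested members of that list 3 rose (Reg3g, the mucin gene Muc1 and the lysozyme gene Lyz2) and 1 fell, Defb1. Among all tested genes 6.74% rose and 3.30% fell. The fall of Defb1 (-1.17, adjusted p = 0.0486) lost the call without any 1 of the 6 mice (adjusted p up to 0.162).

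Genes of the interferon response rose moderately. Of 22 members 12 rose and none fell, with a median of 1.14. Isg15, a ubiquitin-like modifier, stood at 3.65, 1.46 and 1.73 CPM after saline and 12.00, 8.01 and 9.86 CPM at 3 days (log2 fold change 2.14 ± 0.402 (SE), adjusted p = 0.00182). Zbp1, a sensor of nucleic acids, rose by 2.58, Irf7, the factor that amplifies interferon, by 1.67, and the antiviral enzyme genes Oasl2 and Irgm1 by 1.53 and 1.196. Ifit1 had 0.94, adjusted p = 0.13. Without cyclophosphamide mouse 1, 7 of the 12 were called. The promoter of Isg15 (chr4:156200769-156201068, minus strand, RefSeq, GRCm38.p6) is printed because it carries a run of GAAANNGAAA (capitals), the core of the element that interferon-activated factors bind.
Isg15: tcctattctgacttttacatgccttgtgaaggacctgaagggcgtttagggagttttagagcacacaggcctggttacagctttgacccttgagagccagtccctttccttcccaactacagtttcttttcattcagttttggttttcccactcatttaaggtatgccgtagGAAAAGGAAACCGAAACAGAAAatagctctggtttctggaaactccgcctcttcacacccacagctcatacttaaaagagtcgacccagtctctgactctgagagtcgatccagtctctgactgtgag
The 3 matches overlap in 1 run upstream of the start. This pattern was present on either strand in 11 of 17 promoters of the list (64.7%) and in 3.99% of all genes with an entry.

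Many macrophage genes rose while genes of MHC class II fell. Of 22 genes of macrophages and monocytes 14 rose and none fell, with a median of 1.14, and the summed level was 600.3, 608 and 677 CPM after saline and 1099, 1293 and 1486 CPM at 3 days, without overlap. The scavenger receptor Msr1 stood at 2.81, 2.43 and 2.72 CPM after saline and 14.2, 9.39 and 9.79 CPM at 3 days (log2 fold change 2.06 ± 0.274 (SE), adjusted p = 5.89e-05). Trem2, a lipid receptor of tissue macrophages, went from 2.203 ± 0.995 to 15.9 ± 6.54 CPM (log2 fold change 2.87 ± 0.4100 (SE), adjusted p = 0.000129), and Cd68 and the Fc receptor gene Fcgr1 rose by 1.56 and 2.12. The complement genes C1qa, C1qb and C1qc rose by 1.14, 1.10 and 1.14. Adgre1, which encodes F4/80, stood at 10.6, 10.3 and 10.7 and 20.5, 20.8 and 16.3 CPM (log2 fold change 0.87 ± 0.285 (SE), adjusted p = 0.062), without overlap. It was called by DESeq2, without the filter on low counts, in a fit of the 6 libraries alone and with a replicate block (adjusted p down to 0.00227). The lysozyme gene Lyz2 was the member higher at 3 days than at 1 day, 171 ± 13.7 and 408 ± 108 CPM (1.26, adjusted p = 0.00635); its rise over saline lost the call without cyclophosphamide mouse 1 (adjusted p = 0.0636). Without that mouse, or without saline mouse 2 or 3, 9 of the 14 rises were called, and C1qb lost its call without any 1 mouse other than cyclophosphamide mouse 3 (adjusted p up to 0.108).

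Of 15 genes of dendritic cells and MHC class II, which presents antigen to T cells, 4 fell and none rose. H2-Aa stood at 81.8, 70.5 and 55.4 CPM after saline and 26.97, 22.8 and 33.1 CPM at 3 days (log2 fold change -1.33 ± 0.247 (SE), adjusted p = 0.00173). H2-Eb1 and H2-Ab1, 2 further chains, fell by 1.37 and 1.26, and Cd74, the invariant chain, fell by 1.35 on the log2 scale. The drug mice lay below the saline mice for all of these. Without cyclophosphamide mouse 1, H2-Aa and H2-Eb1 were called and H2-Ab1 and Cd74 were not (adjusted p up to 0.0633 and 0.082), and without saline mouse 1 Cd74 was not. Ciita, the factor that switches on class II, had -1.09, adjusted p = 0.189.

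Lymphocyte genes were low in all mice. By edgeR none of 19 tested T and NK cell genes and none of 14 tested B and plasma cell genes passed, although 18 and 12 of them had negative log2 changes. The T and NK genes summed to 16.4, 20.6 and 31.2 CPM after saline and 11.1, 11.3 and 11.6 CPM at 3 days, and the B cell genes to 17.3, 22.6 and 26.8 and 13.03, 14.6 and 14.9 CPM, so the sums of both lists did not overlap. The natural killer cell genes Nkg7 and Ncr1 came nearest to a call (-3.18, adjusted p = 0.0614 and -2.10, adjusted p = 0.0789), and 2 of the T and NK genes were lower by DESeq2, with a stricter filter on low counts, in a fit of the 6 libraries alone or without cyclophosphamide mouse 3, and 1 without cyclophosphamide mouse 2. Cd3e stood at 0.788, 0.194 and 0.424 and 0.229, 0.264 and 0.0334 CPM (log2 fold change -1.37 ± 1.08 (SE), adjusted p = 0.489), with overlap. Pax5, a B cell factor, had 29 counts in the saline group and 0 in the drug group, at least 12.93-fold lower against the floor of 3 counts (adjusted p = 0.0772), and was called by DESeq2 and without the filter on low counts (0.0179 and 0.0428). In each of those settings, and in a fit of the 6 libraries alone, 1 B cell gene was called lower. Differences of most single genes were not detectable at these counts. The common leukocyte antigen gene Ptprc stood at 18.2, 9.91 and 11.9 and 16.6, 12.1 and 14.4 CPM (log2 fold change 0.11 ± 0.372 (SE), adjusted p = 0.9).

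Of 16 neutrophil genes 9 were tested, and edgeR called none higher, although 8 of the 9 had positive log2 changes (median 0.99). In sum the 16 genes stood at 27.58, 28.28 and 32.02 CPM after saline and 12.17, 22.31 and 24.51 CPM at 3 days, lower without overlap. DESeq2 and a fit of the 6 libraries alone each called 1 higher. Ly6g, Camp, Ngp and Elane had no count in either group. S100a8 stood at 0, 0.291 and 0.0605 and 0.745, 0 and 0.201 CPM (log2 fold change 1.44 ± 1.38 (SE), adjusted p = 0.588), and Csf3r, the receptor for the neutrophil growth factor, had 1.66, adjusted p = 0.0708. The call by the other fits was that of Csf3r (adjusted p = 0.027 and 0.00642). Mmp8 and Fpr1, which did not pass the filter, had 26 and 19 counts after the drug and 0 after saline, at least 6.479- and 4.735-fold higher against the floor of 3 counts in the group. Mmp9 fell (-1.24, adjusted p = 0.0484), a call lost without any 1 mouse other than cyclophosphamide mouse 2 (adjusted p up to 0.19). Of 10 tested genes of mast cells and eosinophils, Kit fell (log2 fold change -1.82 ± 0.448 (SE), adjusted p = 0.014), while the mast cell protease Tpsb2 had -0.04, adjusted p = 0.986. The fall of Kit, which interstitial cells of the bladder also express, lost the call without cyclophosphamide mouse 1 or 3 or saline mouse 2 (adjusted p up to 0.0869).

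Smooth muscle transcripts took a smaller share of the library. All 19 genes of the list had negative log2 changes, with a median of -0.86, and 7 passed the test. They summed to 33610, 36320 and 43610 CPM after saline and 13470, 21450 and 24590 CPM at 3 days, with no overlap and with cyclophosphamide mouse 1 the lowest. Myh11, the smooth muscle myosin heavy chain, stood at 7032, 7583 and 6887 CPM and then 1667, 4374 and 3051 CPM (log2 fold change -1.24 ± 0.322 (SE), adjusted p = 0.0184). Acta2, smooth muscle actin, stood at 4797, 6637 and 4799 and 2121, 3666 and 3146 CPM (log2 fold change -0.86 ± 0.322 (SE), adjusted p = 0.105) and did not pass. Synpo2, an actin-binding protein, had the smallest p of the list (log2 fold change -1.47 ± 0.265 (SE), adjusted p = 0.00127). Chrm2, the most abundant muscarinic receptor of the bladder wall, fell (-1.34, adjusted p = 0.0248), P2rx1, the ATP-gated channel of the detrusor, fell (-1.19, adjusted p = 0.0411), and Chrm3, the receptor that triggers contraction, had -0.14, adjusted p = 0.873. Mylk, the myosin light chain kinase, fell (-0.99, adjusted p = 0.0285). Most of these calls were lost when 1 mouse was left out: Synpo2 alone was called without cyclophosphamide mouse 1, cyclophosphamide mouse 3 or saline mouse 2, 2 genes without saline mouse 1 and 3 without saline mouse 3 or without the filter, against 11 by DESeq2 and 17 in a fit of the 6 libraries alone. None of the 19 differed between 3 days and 1 day.

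Fibroblast genes split between those that stood above saline and those that stood below. Of 19 members 3 rose (Vim, Col3a1, Fbln2), 3 fell (Gsn, Pi16, Fbln1) and the median was -0.16, beside 6.74% and 3.30% of all tested genes. Col3a1, a fibrillar collagen, stood at 1776, 1789 and 1572 CPM after saline, 654, 1150 and 868 CPM at 1 day and 3036, 4406 and 4443 CPM at 3 days (log2 fold change 1.21 ± 0.308 (SE), adjusted p = 0.0168). Col1a1 stood at 1343, 1239 and 1284, 334, 532 and 401 and 1717, 3130 and 3156 CPM in the same order (log2 fold change 1.05 ± 0.341 (SE), adjusted p = 0.0585). Every mouse of day 1 lay below every other mouse for both genes, and both were higher at 3 days than at 1 day (2.15, adjusted p = 0.00119 and 2.66, adjusted p = 0.000627). Gsn, the actin-severing gelsolin, stood at 2915, 2868 and 3012 CPM after saline and 1008, 1131 and 1001 CPM at 3 days (log2 fold change -1.49 ± 0.175 (SE), adjusted p = 1.69e-05), a level already present at 1 day (1143, 1273 and 1084 CPM). Pi16, a marker of fibroblasts around vessels, went from 261 ± 36.5 to 71.4 ± 16.9 CPM (log2 fold change -1.87 ± 0.409 (SE), adjusted p = 0.00657). Against 1 day, 7 of 19 members were higher and none lower, beside 1.22% and 0.217% of all tested genes. Besides the collagens, the higher members were Fbln1, Fbln2, Lum and Mfap5. The call of Col3a1 over saline was lost without any 1 mouse other than cyclophosphamide mouse 1 (adjusted p up to 0.0757), that of Fbln2 without 3 of them (cyclophosphamide mouse 1, saline mice 2 and 3, up to 0.0922) and that of Fbln1 without all but cyclophosphamide mouse 2 (up to 0.215).

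Most collagen chains were higher at 3 days than at 1 day. Of 19 chains, a list made after values were seen, 13 were higher at 3 days than at 1 day and none lower (median log2 difference 1.58). Among all tested genes 1.22% were higher and 0.217% lower at 3 days than at 1 day. Against saline 6 rose (Col3a1, Col5a1, Col5a2, Col8a1, Col11a1 and Col18a1), 1 fell (Col8a2), and the median was 0.64. Col14a1, a collagen on the surface of fibrils, stood at 293, 278 and 264 CPM after saline, 10.9, 17.5 and 18.6 CPM at 1 day and 118, 191 and 150.5 CPM at 3 days, higher than at 1 day (3.29, adjusted p = 0.000315) and not called against saline (-0.86, adjusted p = 0.164). Col11a1, a minor fibrillar chain, went from 8.27 ± 2.52 through 3.000 ± 0.966 to 32.3 ± 10.2 CPM (log2 fold change 1.97 ± 0.504 (SE), adjusted p = 0.0172 against saline), and Col8a1, a chain of short networks, from 24.4 ± 2.47 through 24.4 ± 3.01 to 73.03 ± 15.9 CPM (log2 fold change 1.58 ± 0.241 (SE), adjusted p = 0.000245). Basement membrane chains Col4a1 and Col4a2 had log2 changes of 0.53 and 0.43 against saline (adjusted p = 0.212 and 0.31). Col11a1 lost its call against saline without cyclophosphamide mouse 3 or saline mouse 2 or 3 (adjusted p up to 0.0928), and the fall of Col8a2 (adjusted p = 0.0468) was lost without any 1 of the 6 mice, with a replicate block and without the filter on low counts (up to 0.208).

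Genes that crosslink, cut and signal from the matrix rose more often than they stayed uncalled. Of 27 members 26 were tested, 17 rose and none fell, with a median of 1.12. Timp1, an inhibitor of matrix proteases, stood at 3.99, 3.35 and 2.996 CPM after saline and 49.5, 42.4 and 52.6 CPM at 3 days (log2 fold change 3.81 ± 0.338 (SE), adjusted p = 1.26e-06). Lox, the lysyl oxidase that crosslinks collagen, stood at 20.1, 19.5 and 14.3 CPM after saline, 7.23, 8.91 and 8.99 CPM at 1 day and 59.4, 45.2 and 61.6 CPM at 3 days (log2 fold change 1.63 ± 0.217 (SE), adjusted p = 6.31e-05 against saline). Its relative Loxl2 stood at 40.4, 35.2 and 30.1, 27.3, 37.8 and 42.9 and 141, 115 and 169 CPM (log2 fold change 2.01 ± 0.191 (SE), adjusted p = 2.23e-06). Both enzymes were higher at 3 days than at 1 day (2.72, adjusted p = 8.88e-06 and 1.98, adjusted p = 2.81e-05). The membrane protease Mmp14 rose by 1.18, the aggrecanase Adamts4 by 2.63, the hyaluronan synthase Has2 by 1.47 and the activin subunit Inhba by 2.23. Mmp10, a protease of wound-edge epithelium, had 190 counts after the drug and 1 after saline (ratio 142, counting interval 25.19 to 5639). Ccn1 and Ccn2, targets of mechanical signalling, rose by 1.53 and 1.58, and Tgfb1 by 0.61. Postn and Tnc, 2 matricellular genes of repair, had 0.16, adjusted p = 0.771 and 0.75, adjusted p = 0.0875. Without cyclophosphamide mouse 1 or saline mouse 2, 11 of the 17 rises were called. Single losses were those of Tgfb1 (without any 1 mouse other than cyclophosphamide mouse 3, adjusted p up to 0.119), Ccn1 (cyclophosphamide mouse 1, saline mouse 1 or 2, up to 0.115), Ccn2 (cyclophosphamide mouse 1 or saline mouse 2, up to 0.0753) and Mmp10 (saline mouse 3, 0.0569).

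Vessel genes rose in part: 9 of 20 passed, all upward, with a median of 0.73. Eng, a co-receptor of TGF-beta in endothelium, stood at 50.05, 44.7 and 48.96 CPM after saline and 120.5, 122 and 94.4 CPM at 3 days (log2 fold change 1.23 ± 0.132 (SE), adjusted p = 6.63e-06), and Plvap, the diaphragm protein of fenestrated vessels, at 35.6, 29.8 and 38.01 and 107, 102 and 83.8 CPM (log2 fold change 1.502 ± 0.181 (SE), adjusted p = 2.18e-05). The apelin receptor gene Aplnr and the angiopoietin receptor relative Tie1 rose by 1.91 and 1.24 over saline and were also higher than at 1 day (adjusted p = 0.0176 and 0.0152). The pan-endothelial genes Cdh5 and Pecam1 rose by 1.07 and 0.67, while Kdr and Vegfa had adjusted p = 0.522 and 0.275. Pecam1 lost its call without any 1 mouse other than cyclophosphamide mouse 3 (adjusted p up to 0.0944). Of 14 tested nerve and Schwann cell genes, Ngfr, the neurotrophin receptor of injured Schwann cells, went from 1.49 ± 0.414 to 9.98 ± 1.95 CPM (log2 fold change 2.73 ± 0.386 (SE), adjusted p = 0.000117). Mbp rose too (0.57, adjusted p = 0.0267), a call lost without cyclophosphamide mouse 1 or 3 or saline mouse 2 or 3 (adjusted p up to 0.123), and the neuronal gene Uchl1 had -1.30, adjusted p = 0.0572.

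**Figure D4:**
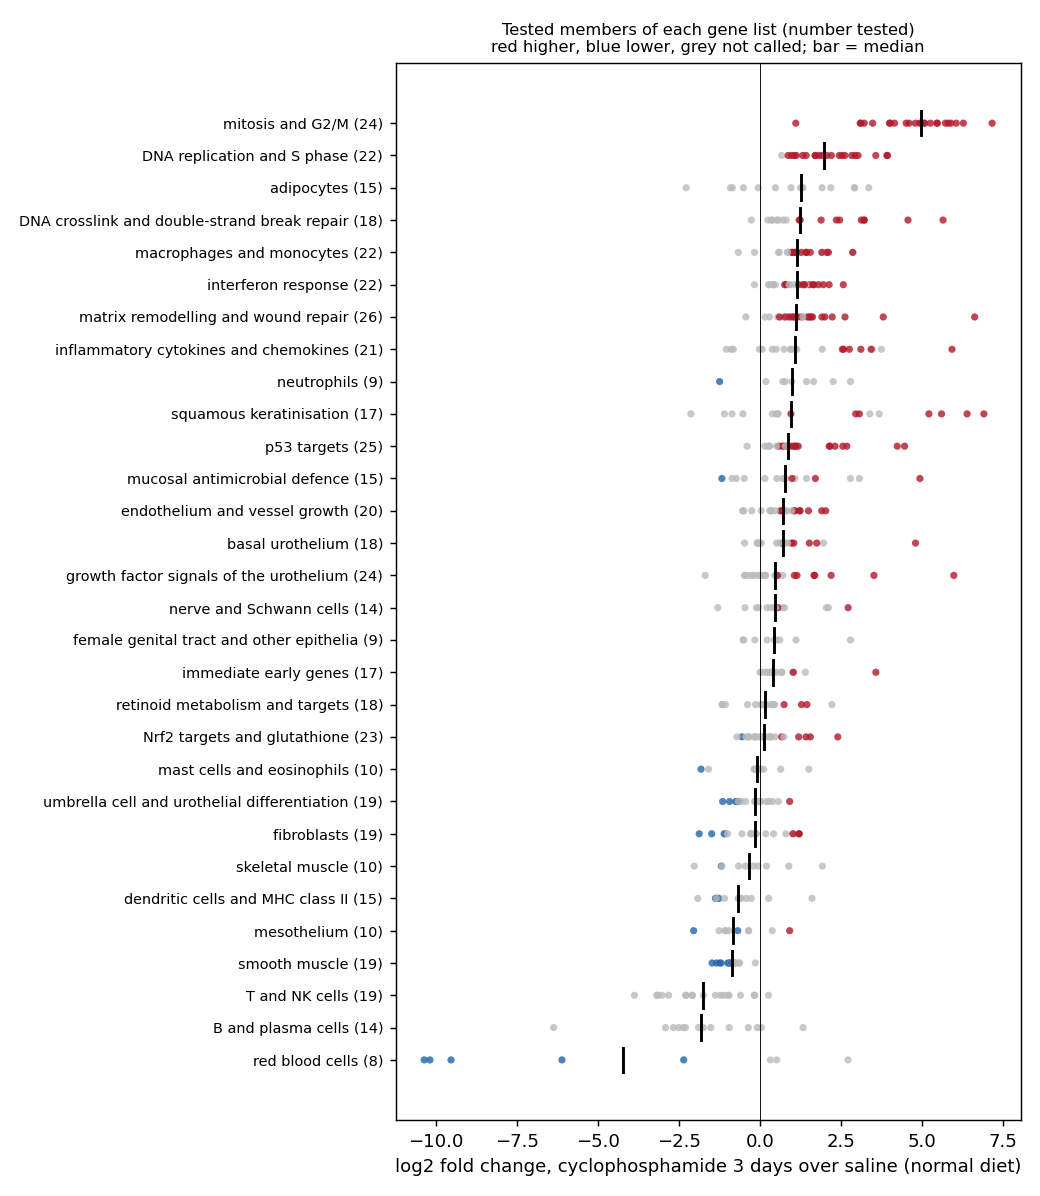
Log2 fold change 3 days after cyclophosphamide over saline for each tested member of 30 gene lists (points; the number tested is in parentheses), with the median as a black bar. Red members are higher and blue members lower at an adjusted p under 0.05: all 24 mitotic genes are red, smooth muscle genes lie left of 0, and 5 of 8 red cell genes are blue.

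Some detoxification genes were above saline at 3 days, and 4 were lower than at 1 day, beside 0.217% of all tested genes. Of 23 targets of Nrf2, the factor that answers electrophiles, and glutathione genes, 5 rose and 1 fell against saline, with a median of 0.13. In sum the 23 genes stood at 9115, 9560 and 9773 CPM after saline and 6830, 7640 and 8396 CPM at 3 days, lower without overlap. DESeq2 called 3 members lower and a fit of the 6 libraries alone 4. Among all tested genes 6.74% rose and 3.30% fell. Hmox1, haem oxygenase, stood at 27.2, 26.2 and 21.8 CPM after saline, 112, 122 and 179 CPM at 1 day and 99.5, 68.2 and 53.9 CPM at 3 days (log2 fold change 1.56 ± 0.257 (SE), adjusted p = 0.000566 against saline). The glutathione peroxidase gene Gpx2 stood at 13.3, 11.9 and 10.7, 129, 77.04 and 154 and 104, 34.5 and 51.2 CPM (log2 fold change 2.41 ± 0.338 (SE), adjusted p = 0.000109). Akr1b8 rose over saline (1.43, adjusted p = 0.00256) and was lower than at 1 day (-1.42, adjusted p = 0.0121). Gsta1, Gsta2 and Gstp1, which conjugate electrophiles to glutathione, were also lower than at 1 day: Gsta2 went from 23.1 ± 0.6098 CPM after saline through 64.5 ± 11.6 CPM to 20.8 ± 3.13 CPM (-1.63, adjusted p = 0.000222 against 1 day), and close copies may share reads with it. Gstm1, a further transferase, had -0.71, adjusted p = 0.0717 against saline. It was called lower by DESeq2, without the filter on low counts and in a fit of the 6 libraries alone (adjusted p down to 0.00304). Gclc, the catalytic subunit of glutathione synthesis, fell below saline (-0.55, adjusted p = 0.0305). Its call was lost without any 1 mouse other than cyclophosphamide mouse 3 (adjusted p up to 0.12), and that of Txnrd1 (rise of 0.68) without cyclophosphamide mouse 1 or 3 or saline mouse 1 or 2 (up to 0.0741). Without any 1 of those 4 mice, 3 of the 5 rises were called.

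This study's diet addresses retinoid metabolism. Of 18 tested genes of retinoid metabolism and response, 3 rose and none fell, beside 6.74% and 3.30% of all tested genes. All 3 encode retinaldehyde dehydrogenases, the enzymes that make retinoic acid: Aldh1a2 stood at 21.4, 19.1 and 14.2 CPM after saline and 38.9, 46.2 and 48.04 CPM at 3 days (log2 fold change 1.29 ± 0.252 (SE), adjusted p = 0.00262), and Aldh1a1 and Aldh1a3 rose by 0.75 and 1.45. Cyp26b1, which breaks retinoic acid down, stood at 4.53, 1.94 and 7.57 and 2.405, 2.58 and 1.805 CPM, with overlap (log2 fold change -1.06 ± 0.398 (SE), adjusted p = 0.105). The receptor gene Rarb, a classical target of retinoic acid, had 0.43, adjusted p = 0.188. Aldh1a1 lost the call without cyclophosphamide mouse 1 or saline mouse 1 or 3 (adjusted p up to 0.145), and Aldh1a3 without cyclophosphamide mouse 1 or 2 or saline mouse 2 or 3 (up to 0.112). Without cyclophosphamide mouse 1 or saline mouse 3, 1 of the 3 was called.

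Among well-expressed genes the largest falls were those of the haemoglobins. Hbb-bs, a beta globin, stood at 87.4, 66.7 and 37.5 CPM after saline, 15.5, 21.7 and 23.2 CPM at 1 day and 0, 0.0881 and 0.167 CPM at 3 days (log2 fold change -9.53 ± 0.767 (SE), adjusted p = 7.59e-07). Hba-a1, an alpha globin, stood at 40.4, 34.6 and 27.3, 5.68, 10.9 and 11.3 and 0.315, 0.499 and 0.669 CPM (log2 fold change -6.11 ± 0.6000 (SE), adjusted p = 2.89e-06). The group counts of Hbb-bt went from 446 to 0, at least 198.9-fold lower, and those of Hba-a2 from 392 to 0, at least 174.8-fold lower, against a floor of 3 counts in the group. All 4 globins were also lower at 3 days than at 1 day, and their nearly identical copies may share reads. Alas2, which makes haem in red cell precursors, fell by 2.35 on the log2 scale (adjusted p = 0.00361). Globin transcripts come from red cells and their precursors. The amount of blood in the tissue was not measured, and its part in these values was not tested.

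The other large falls came from genes of several kinds. Ttr, transthyretin, which carries retinol-binding protein, stood at 89.2, 126 and 116 CPM after saline, 4.38, 12.96 and 1.78 CPM at 1 day and 3.46, 3.405 and 4.08 CPM at 3 days (log2 fold change -4.92 ± 0.835 (SE), adjusted p = 0.00145). Inmt, a methyltransferase of indoles, stood at 194, 183 and 232 CPM after saline and 13.8, 27.5 and 11.8 CPM at 3 days (log2 fold change -3.52 ± 0.812 (SE), adjusted p = 0.0136). Kl, which encodes klotho, stood at 8.23, 6.798 and 7.44 and 0.458, 0.558 and 1.04 CPM (log2 fold change -3.45 ± 0.699 (SE), adjusted p = 0.00351). Grik3, a kainate receptor subunit, stood at 33.1, 31.03 and 40.7 and 3.06, 5.31 and 6.15 CPM (log2 fold change -2.85 ± 0.4900 (SE), adjusted p = 0.000815), and Myoc, myocilin, at 27.3, 14.6 and 20.9 and 1.86, 4.81 and 1.14 CPM (log2 fold change -3.00 ± 0.629 (SE), adjusted p = 0.00446). In all 5 genes the groups did not overlap. The rest of the 15 largest falls were Gm33240 (-3.50), the adipokine relative C1qtnf3 (-3.41), Cnnm1 (-3.18), Gm15816 (-2.83), Bex4 (-2.67), the cilium gene Rsph4a (-2.67), Rab11fip4 (-2.54) and the histamine receptor gene Hrh3 (-2.53). Bex4, Rsph4a, Rab11fip4, Hrh3 and Inmt lost their calls without 2 to 4 of the 6 mice, cyclophosphamide mouse 1 among them each time (adjusted p up to 0.112, 0.0886, 0.108, 0.093 and 0.0741). Between 3 days and 1 day, of the 15 genes only Hbb-bs and Hba-a1 differed at an adjusted p under 0.05; Ttr had -0.81, adjusted p = 0.776 and Inmt 1.72, adjusted p = 0.444.

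Between 1 day and 3 days after the drug, 278 genes differed, 236 (1.22% of those tested) higher and 42 (0.217%) lower at 3 days. Among the lists, the most members higher at 3 days were in fibroblasts (7 of 19), matrix (5 of 26), mitosis (5 of 24), growth factors (4 of 24) and endothelium (3 of 20). Members lower at 3 days were in Nrf2 and glutathione (4 of 23), red cells (4 of 8) and squamous genes (1 of 17, Sbsn). By edgeR's test no member of the lists for replication, p53 targets, repair, umbrella cells, basal cells, smooth muscle, interferon or cytokines differed between the days. Of the 1303 genes above saline at 3 days, 85 were also higher than at 1 day, 3 were lower and 1215 had no call, and of the 637 below saline 12 were lower than at 1 day, 6 higher and 619 had no call. The comparisons of 1 day and of 3 days with saline share the same saline mice, so their own values are given side by side above and no overlap of their calls is drawn. Left-out mice moved the 278 to between 70 (without mouse 1 of day 1) and 257 (without mouse 2 of day 1), with 109 without mouse 3 of day 1 and 194, 113 and 130 without mice 1, 2 and 3 of day 3. DESeq2 called 664.

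The same comparison in other mice, on the diet enriched in vitamin A, gave 1156 calls (5.98%), 834 higher (4.32%) and 322 lower (1.67%). Of the 1303 genes that rose on the normal diet, 1291 (99.1%) had the same sign on the vitamin A diet and 721 (55.3%) were called there in that direction. Of the 637 that fell, 624 (98%) had the same sign and 198 (31.1%) were called. These 6 mice share no animal with the 6 above. Without saline mouse 1, 2 or 3 of that diet 750, 671 and 764 genes were called, DESeq2 called 1766, and a fit of its 6 libraries alone 499. All 22 replication genes and 23 of 24 mitotic genes rose there, with log2 changes of 4.10 for Mki67 and 5.66 for Ube2c, against 5.73 and 7.36 on the normal diet. Hbb-bs fell by 10.84 on the log2 scale and Ttr by 3.39. The MHC class II genes H2-Aa, H2-Eb1 and Cd74 fell by 2.45, 2.68 and 2.47 there. The list of dendritic cells and MHC class II varied widely among the saline mice of that diet. It summed to 413, 561 and 972 CPM in them and to 100.4, 152.9 and 155 CPM at 3 days. Lox, which rose on the normal diet, had 0.47, adjusted p = 0.229 on the vitamin A diet, and Isg15 1.35, adjusted p = 0.0447. Tested as an interaction, the difference of the 3-day change between the diets reached an adjusted p under 0.05 for 0 of 19323 genes (0%) by edgeR, with 464 at an unadjusted p under 0.05, and for 0 by DESeq2, with 609. For Lox the interaction was 1.15 on the log2 scale (adjusted p = 1) and for H2-Aa 1.12 (adjusted p = 1), so no gene is shown to respond differently, nor to respond alike.

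**Figure D5:**
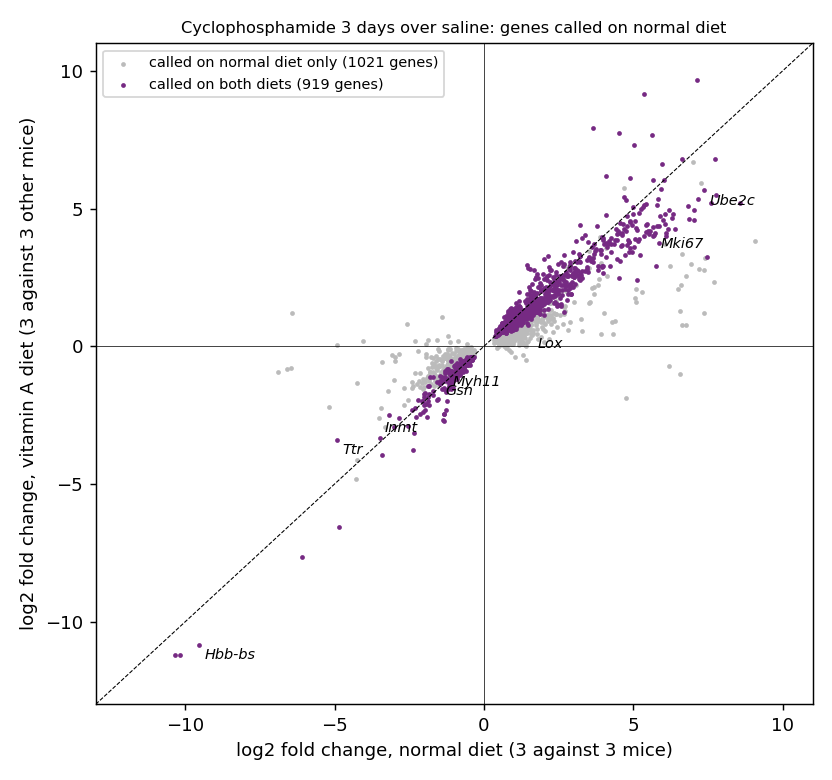
Log2 fold change 3 days after cyclophosphamide over saline in mice on the normal diet (x axis) and in other mice on the vitamin A diet (y axis), for the 1940 genes called on the normal diet. Purple genes were called on both diets and grey ones on the normal diet alone; the dashed line marks equal change, and most genes lie in the quadrants of equal sign.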

How the data were processed

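RNA of whole bladders was sequenced, and per the submitters' processing notes HISAT2 2.0.5, featureCounts 1.5.0-p3, DESeq2 1.20.0 and build GRCm39 were used. The authors deposited read counts per gene and FPKM; counts were tested and the authors' FPKM served for levels between genes. Of 60750 features, 14417 without a gene name (0.474% to 0.8097% of counts) were left out. Genes were filtered with filterByExpr and fitted in edgeR 4.0.16 (R 4.3.3) with TMM scaling and 1 mean per group over all 18 libraries (12 residual degrees of freedom), robust quasi-likelihood F tests and Benjamini-Hochberg adjustment over 19323 genes, at 0.05. An exact permutation of 3 against 3 mice cannot go below 0.1. The steps were tested on simulated data. Named genes were up to 15 largest changes each way (mean log2 CPM of at least 1, no overlap), up to 4 members each way per list, and 28 fixed genes; other genes named were chosen after their values were seen, and some genes of the lists are not reported here. The members and gene lists were chosen with earlier results of these data known. Alternatives were RLE scaling, DESeq2 1.42.0, other filters, only the libraries compared, a replicate block and left-out mice. No 2 libraries of a group agreed within counting noise (chi-square per degree of freedom 14.61 to 56.1). Motifs were searched on both strands of RefSeq promoters (GRCm38.p6, 27025 genes). Counting intervals cover counting error only. The kit is not stated to keep strand, so overlapping genes may share reads.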

Additional observations from a re-analysis of the deposited data

Results flagged for a closer look

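The change from saline differed between 3 days and 1 day after cyclophosphamide for 278 of 19323 genes (edgeR's quasi-likelihood test of the difference, adjusted p under 0.05), 236 higher and 42 lower at 3 days. An example is the collagen crosslinking gene Lox, with 7.23, 8.91 and 8.99 CPM at 1 day and 59.4, 45.2 and 61.6 CPM at 3 days.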

How the results depend on the processing

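The 1940 calls at 3 days against saline became 3710 in a fit of the 6 libraries alone, and 961 to 1559 when single mice were left out. The 278 calls against 1 day became 664 by DESeq2, 708 in a fit of the libraries compared and 70 to 257 without single mice, and the 1156 calls on the vitamin A diet became 1766, 499 and 671 to 1664. The other settings stayed within 1.5 times, and the difference between diets gave 0 calls by edgeR and DESeq2 in every setting. The causes were not tested. Deviations of mice of the same number had correlations of -0.0186, 0.00678 and 0.00682 for the 3 pairs, and -0.123 to 0.197 over 45 same-numbered pairs. These low values cannot exclude that same-numbered mice shared a cage or batch, and the main fit did not pair them. With a replicate block 1770, 249, 1050 and 0 genes were called. Of 226 named genes, 168 were called and 119 of these kept the call under all settings, 49 lost it under 1 or more, and 27 uncalled genes gained one. In a fit of the 6 libraries alone, Ciita, Col14a1, Col4a1, Col4a2, Elf3, Fanca, Fancd2 and Gli1 gained a call. So did Ifit1, Ivl, Rrm2b, Sprr1a, Tgfa, Tnc and Upk3a. Acta2 and Rfc4 gained one there and by DESeq2. Uchl1 did in both and with a replicate block. Col1a1 gained one in that fit and without cyclophosphamide mouse 1, and Cyp26b1 by DESeq2 and without saline mouse 2. The sign of 14 uncalled genes changed, with these log2 changes against saline: over left-out mice Arntl -0.484 to 0.008, Bmp4 -0.071 to 0.084, Chrm3 -0.513 to 0.051, Egf -0.387 to 0.263, Gsta1 -0.369 to 0.438, Il1b -0.510 to 1.584, Lum -0.304 to 0.031, Pparg -0.059 to 0.088, Ptprc -0.061 to 0.398, S100a8 -0.208 to 3.004, Shh -0.131 to 0.017, Tpsb2 -0.589 to 0.325, Trp63 -0.138 to 0.018, Wnt2 -0.015 to 0.157; with RLE scaling Bmp4 -0.012 and Pparg -0.008; by DESeq2 Bmp4 -0.012 and Pparg -0.008; with a filter of 1 CPM in 3 libraries Bmp4 -0.001; in a fit of the 6 libraries alone Bmp4 -0.004. Genes with few counts per group, such as those of lymphocytes and neutrophils, are limited by depth.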

Other observations

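Genes of the circadian clock, listed after the values were seen, gave 4 falls and no rise among 17 tested genes at 3 days against saline, beside 3.30% of all genes that fell. Nr1d1, the repressor also known as Rev-erb alpha, stood at 154, 158 and 196 CPM after saline, 91.7, 78.2 and 144 CPM at 1 day and 56.3, 73.1 and 80.2 CPM at 3 days (log2 fold change -1.28 ± 0.187 (SE), adjusted p = 0.000161). Dbp, an output factor of the clock, stood at 116, 135 and 166, 124, 137 and 169.6 and 62.8, 59.2 and 95.9 CPM (-0.94, adjusted p = 0.0354), and Bhlhe41 and Cry2 fell as well (-0.91, adjusted p = 0.000257 and -0.55, adjusted p = 0.0319). Dbp lost its call without cyclophosphamide mouse 1 or 2 or saline mouse 2 or 3 (adjusted p up to 0.156), and Cry2 without cyclophosphamide mouse 1 or 3 or saline mouse 2 or 3 (up to 0.195). Arntl (Bmal1), whose product drives these genes, had -0.25, adjusted p = 0.605 against saline and was higher at 3 days than at 1 day (1.08, adjusted p = 0.0396). The hour of collection is not given in the sources used here, and its part in these values was not tested.

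In absolute share, among genes called against saline, those that lost the most CPM were Myh11, Gsn, Csrp1, Tpm1 and Mylk, and those that gained the most were Col3a1, Krt15, Sprr2a3, Gsdmc2 and Sparc, named here after their values were seen. Gsdmc2, a gasdermin with close copies, went from 226 ± 33.5 to 882 ± 126 CPM (log2 fold change 1.96 ± 0.235 (SE), adjusted p = 2.04e-05).

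The remaining lists held few calls or none, beside 6.74% of all tested genes that rose and 3.30% that fell. Of 15 tested adipocyte genes edgeR called none, and 10 of them had positive log2 changes (median 1.26). DESeq2 called 3 lower and a fit of the 6 libraries alone 4 lower and 1 higher. The adipocyte genes summed to 841, 967 and 1061 CPM after saline and 679, 833 and 1138 CPM at 3 days. Their mean log2 CPM minus the saline mean was -0.459, 1.008 and -0.549 in saline mice 1, 2 and 3. At 3 days it was 1.522, 1.093 and -0.58, with overlap. Immediate early genes summed to 559, 644 and 784 and 662, 737 and 1376 CPM, highest in cyclophosphamide mouse 1, and 2 of 17 rose, Fosl1 (3.58, adjusted p = 0.000758) and Ier3 (1.03, adjusted p = 0.0251, lost without cyclophosphamide mouse 1 or saline mouse 1 or 3, up to 0.262). Skeletal muscle genes summed to 303, 357 and 390.2 and 149, 208 and 245 CPM, with Ckm lower (-1.19, adjusted p = 0.0485, lost without any 1 mouse other than cyclophosphamide mouse 2, up to 0.232). Mesothelial genes summed to 2329, 2386 and 2822 and 2803, 2873 and 3774 CPM, a sum led by keratins that urothelium shares. Of 10 tested members 8 had negative log2 changes (median -0.815), 1 rose (Krt19) and 2 fell, Upk3b and Muc16. The change of Muc16 was -2.04 (adjusted p = 0.038, lost without any 1 mouse other than saline mouse 2, up to 0.178). DESeq2 and a fit of the 6 libraries alone each called 4 members lower, and without cyclophosphamide mouse 2 none was. None of 9 tested genes of the genital tract and other epithelia passed by edgeR or DESeq2, with sums of 91.6, 95.8 and 99.2 and 82.5, 92.2 and 114 CPM, and Umod, Aqp2 and Cdx2 had no count in either group.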
